A study of Mus musculus with 6 samples.

Results

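Interferon-stimulated effectors outside the large and well-known families were followed through 40 named genes, and 40 of 40 were found by symbol among the 24413 genes of the deposited table. Most of them code for inducible proteins that act inside the cell, at its surface or after secretion, and they were chosen by name with earlier results of these data known. RNA-seq libraries had been made from Tppp3-lineage cells of the Achilles tendon, sorted for a tdT reporter after dissociation of tendons from 3 male mice aged 12 weeks. The control group (3 libraries) was kept for 24 h in medium with 1% FBS, and the conditioned group (3 libraries) was kept for 24 h in medium conditioned by dorsal root ganglia (DRG), where the cell bodies of sensory neurons lie. The comparison asks how the tendon cells respond to what the ganglia release.

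Cells of both groups carried the genotype Tppp3ECE/+;R26RtdT-CreERT2;ScxGFP, so the reporter alleles are shared by control and conditioned libraries. The conditioned medium came from ganglia of 3 male C57BL/6J mice aged 12 weeks, grown with the antimitotic drugs 5-fluoro-2-deoxyuridine and uridine at 20 µM each and then changed to medium with 1% FBS. The control medium is described only as medium with 1% FBS, so ganglion products and anything else carried over by the ganglion culture cannot be told apart. The labels tie no library to an animal, and p-values therefore measure the spread between libraries, which may in part be technical. The reporter marks cells by lineage, and Tppp3 itself was low, with control libraries at 0.724 to 1.05 FPKM and conditioned ones at 0.777 to 1.12 FPKM. FPKM, the unit of every level given here, is a gene's fragment count divided by the length of the gene and the size of the library. In each pair of lists, values stand in the order of replicates 1, 2 and 3.

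Interferons bind receptors at the cell surface, and JAK kinases then activate transcription factors that enter the nucleus. Type I interferons act largely through the interferon-stimulated response element (ISRE) in promoters, which is bound by a complex that holds Stat2 and Irf9, whereas interferon gamma acts largely through the gamma-activated sequence (GAS). The induced genes code for sensors and destroyers of viral RNA, scaffolds of nuclear bodies, executors of cell death and secreted or membrane proteins, and fibroblasts are a classical cell type in which this response was worked out.

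Of the 40 genes, 26 rose with conditioned medium, 0 fell, 11 did not pass the test and 3 were below the level needed for testing. A gene was tested when its mean over the 6 libraries was at least 1 FPKM, and called when the adjusted p of limma (Benjamini-Hochberg over all 11678 genes tested) was below 0.05. By the same rule 4.04% of all genes tested were called higher and 2.49% were called lower. Voom, a weighted limma fit on recovered fragment counts, called 29 of the 40 higher (5.3% of all genes tested), and limma without a level filter called 25 (1.34% of all genes). Every conditioned library lay above every control library for 34 of the 40 genes, against 8.86% of all genes of the table, and below every control library for 1 gene, against 8.78%. With no level filter the median log2 fold change of the 40 genes was 0.54, where the median of all genes was -0.0042. Fold changes are differences of log2(FPKM + 1), which understates the change of low genes. Ddx60 and Sp110 reached the filter only through the conditioned group, and 24 of the 26 genes that rose had a control mean of at least 1 FPKM. The calls of 24 of the 26 were kept in each of 13 other ways of processing the data, the exceptions being Tdrd7 and Casp4.

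**Figure D1:**
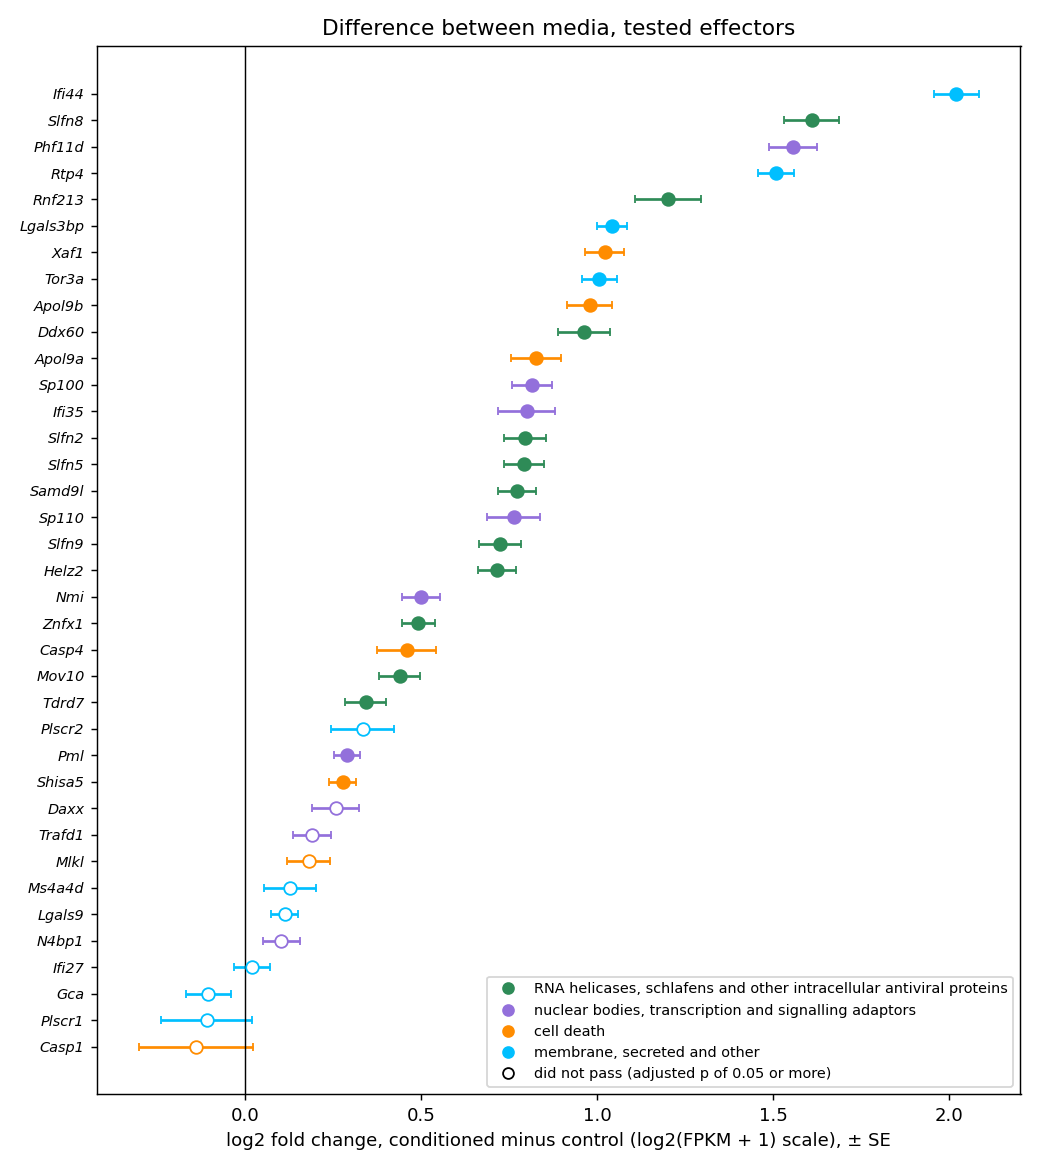
Log2 fold change (conditioned minus control, on the log2(FPKM + 1) scale) of the 37 tested genes, coloured by role, with bars of 1 standard error, filled points for genes that passed and open points for the others. The 26 genes that passed lie between 0.28 for Shisa5 and 2.02 for Ifi44, and the 11 that did not pass lie between -0.14 for Casp1 and 0.33 for Plscr2.

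Stretches of promoter are shown for 6 of the genes because the ISRE core stands in them close to the start of transcription, in either orientation, and because 4 of them belong to pairs of near copies. The ISRE core was searched as GAAA, any 2 bases and GAAA, and the GAS as TTCNNNGAA, both of them on both strands, in windows of 300 bases around RefSeq start sites of the GRCm38.p6 build. Windows were on hand for 35 of the 40 genes (Ifi27, Plscr2, Tor3a, Nlrc5 and Rtp4 were not matched). Letters in capitals mark the ISRE core, and each stretch is written 5′ to 3′ on the strand of its gene.
Ddx60, chr8:61927944-61928086, plus strand: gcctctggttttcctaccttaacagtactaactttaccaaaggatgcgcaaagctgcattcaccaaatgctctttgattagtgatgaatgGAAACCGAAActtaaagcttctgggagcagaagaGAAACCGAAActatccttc
Slfn8, chr11:83020839-83020948, minus strand: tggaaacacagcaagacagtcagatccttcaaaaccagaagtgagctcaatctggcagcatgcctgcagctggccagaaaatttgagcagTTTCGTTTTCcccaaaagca
Slfn9, chr11:82991856-82991965, minus strand: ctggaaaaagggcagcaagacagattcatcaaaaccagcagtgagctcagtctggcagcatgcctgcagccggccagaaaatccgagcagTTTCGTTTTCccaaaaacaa
Apol9a, chr15:77411114-77411229, minus strand: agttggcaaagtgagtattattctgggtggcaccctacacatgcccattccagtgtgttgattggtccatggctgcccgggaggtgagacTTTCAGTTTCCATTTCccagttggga
Apol9b, chr15:77728945-77729060, plus strand: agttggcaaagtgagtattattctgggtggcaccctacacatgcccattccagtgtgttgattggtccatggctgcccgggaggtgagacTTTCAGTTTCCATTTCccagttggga
Lgals9, chr11:78984960-78985069, minus strand: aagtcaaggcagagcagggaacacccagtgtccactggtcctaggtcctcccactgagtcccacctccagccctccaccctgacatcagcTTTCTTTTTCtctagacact

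In Ddx60 the same 10 letters, GAAACCGAAA, occurred in 2 places, 53 to 44 and 19 to 10 bases before the start. Slfn8 and Slfn9 carried the core in the other orientation, at 48 to 39 and 45 to 36 bases before their starts, and 93 of 109 aligned bases of their stretches were identical. The Apol9a and Apol9b stretches were identical over 116 of 116 bases, with 2 overlapping matches, so the printed stretches do not tell the copies apart. In each of these stretches 22 bases, part of the matches among them, lie within exons of the GENCODE annotation.

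The ISRE core was found in 9 of the 35 genes with a window (25.7%), against 3.63% of the genes tested and 3.99% of all genes in the promoter table. Among the other interferon genes it was found in 25 of 45 (55.6%). Of the 9 genes, 8 rose (Apol9a, Apol9b, Ddx60, Shisa5, Slfn5, Slfn8, Slfn9 and Tdrd7), and Lgals9 did not pass the test. The matches of Shisa5 and Tdrd7 stand in windows of start sites inside the gene, after the start in Shisa5, and not in their other windows. The window of Slfn5 and its match also lie inside the gene as placed by GENCODE. Many other genes that rose had no match in their windows, among them Ifi44, Phf11d, Rnf213, Xaf1 and Lgals3bp. That says only that these letters are not there. The GAS was found in 3 of 35 genes (8.57%; Ifi35, Plscr1 and Shisa5), against 7.93% of the genes tested and 11 of 45 (24.4%) of the other interferon genes. Searched on the gene's strand alone, the ISRE core was in 3 of the 35 genes (8.57%), against 1.67% of the genes tested and 33.3% of the other interferon genes. These shares are descriptions, and a match is not shown to be a site that is bound.

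The first group of genes acts on viral RNA or on translation inside the cell, and 11 of its 12 members rose, with conditioned libraries above control libraries in 12 of 12. Of the helicases and the large ATPases among them, Ddx60 and Rnf213 changed most. Ddx60 (chr8:61928087-62038244 in mm10), an RNA helicase that promotes antiviral signalling, stood at 0.709, 0.571 and 0.588 FPKM in control and 2.17, 2.20 and 2.12 FPKM in conditioned libraries. Its groups were far apart relative to their spread, and the log2 fold change was 0.96 ± 0.07 (SE; limma, adjusted p = 0.00018). Ddx60 entered that test only through its conditioned libraries, and without a level filter its adjusted p was 0.001 (limma). The pseudocount weighs on a gene this low: on fragment counts recovered from the table, 376 in control and 1201 in conditioned libraries, the log2 fold change was 1.79. Rnf213 (chr11:119393100-119487418), a giant ubiquitin ligase with an ATPase core that attacks bacteria and viruses, was at 8.13, 7.67 and 6.04 FPKM in control and 17.4, 18.5 and 17.9 FPKM in conditioned libraries. Control replicate 3 was lowest and gave the widest relative spread of any riser (coefficient of variation 15.1%), yet the conditioned values all lay above the highest control value by a wide margin. Rnf213 rose by 1.20 ± 0.09 on the log2 scale (limma, adjusted p = 0.00029).

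Samd9l, an antiviral protein that restrains translation and growth, was at 14.4, 12.9 and 13.1 FPKM in control and 23.4, 23.1 and 24.6 FPKM in conditioned libraries. It rose by 0.77 ± 0.05 (limma, adjusted p = 9.5e-05). Helz2, a helicase that also serves as a nuclear coactivator, went from 6.71 ± 0.362 to 11.7 ± 0.453 FPKM (SD, n = 3 each) and rose by 0.72. Smaller rises were measured for Znfx1, a helicase with a zinc finger that senses double-stranded RNA, by 0.49, and for Mov10, a helicase that restrains retroviruses and retrotransposons, by 0.44. Tdrd7, a tudor-domain protein of RNA granules, had the smallest rise of the group, from 14.2, 13.2 and 14.1 to 16.5, 18.9 and 18.2 FPKM (0.34 ± 0.06; limma, adjusted p = 0.012). Its groups did not overlap, but its adjusted p was 0.053 without control replicate 2 and 0.055 without conditioned replicate 2.

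Cmpk2, a nucleotide kinase of mitochondria that supplies triphosphates in antiviral defence, was below the filter. It was at 0.724, 0.540 and 0.357 FPKM in control and 1.20, 1.23 and 1.49 FPKM in conditioned libraries. The groups did not overlap, and the ratio of means was 2.42 from 159 control and 351 conditioned fragments. Without a level filter its adjusted p was 0.058 (limma). A filter of 1 FPKM in at least 3 libraries admits it through the conditioned libraries alone, so the call made there (limma, adjusted p = 0.019) is no support for the rise.

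The schlafens are a rodent-expanded family that restrains translation and virus growth, and the longer members hold a helicase-like domain. The members lie together on chromosome 11, and 4 of 4 rose, by unequal amounts. Slfn8 (chr11:83002158-83020810) was at 2.65, 2.48 and 2.28 FPKM in control and 8.57, 10.5 and 9.79 FPKM in conditioned libraries, a ratio of means of 3.89. The log2 fold change was 1.61 ± 0.08 (limma, adjusted p = 1.5e-05). It was second to Ifi44 on the log2(FPKM + 1) scale, but below Phf11d as well by the ratio of means and by voom (1.94 against 2.14).

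Slfn9 (chr11:82978390-82991830), its near neighbour with a similar promoter, went from 4.09, 4.23 and 3.79 to 6.90, 7.37 and 7.70 FPKM, a rise of 0.72 ± 0.06 (limma, adjusted p = 0.00027). Slfn5 (chr11:82951349-82964840) went from 6.11, 5.38 and 5.38 to 10.5, 10.3 and 10.5 FPKM, and Slfn2 (chr11:83065112-83070678), a short schlafen that keeps T cells quiescent, from 8.98, 9.30 and 9.65 to 17.3, 18.0 and 15.5 FPKM. Slfn5 rose by 0.79 and Slfn2 by 0.80. In control cells Slfn8 was the lowest of the 4 and Slfn2 the highest. With conditioned medium the Slfn8 mean, 9.61 ± 0.967 FPKM, lay between those of Slfn9 (7.32 ± 0.398) and Slfn5 (10.4 ± 0.144), and its range overlapped that of Slfn5. Part of these transcripts is shared: 14.6% of the 50-base words of Slfn8 and 11.9% of those of Slfn9 also occur in another gene, mostly the pseudogene Slfn10-ps. Slfn10-ps itself did not pass (1.65, 1.05 and 1.49 FPKM in control, 2.06, 1.76 and 1.31 in conditioned libraries; 0.17, limma, adjusted p = 0.54). The other schlafens listed beside it, Slfn3, Slfn4 and Slfnl1, were below the filter.

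**Figure D2:**
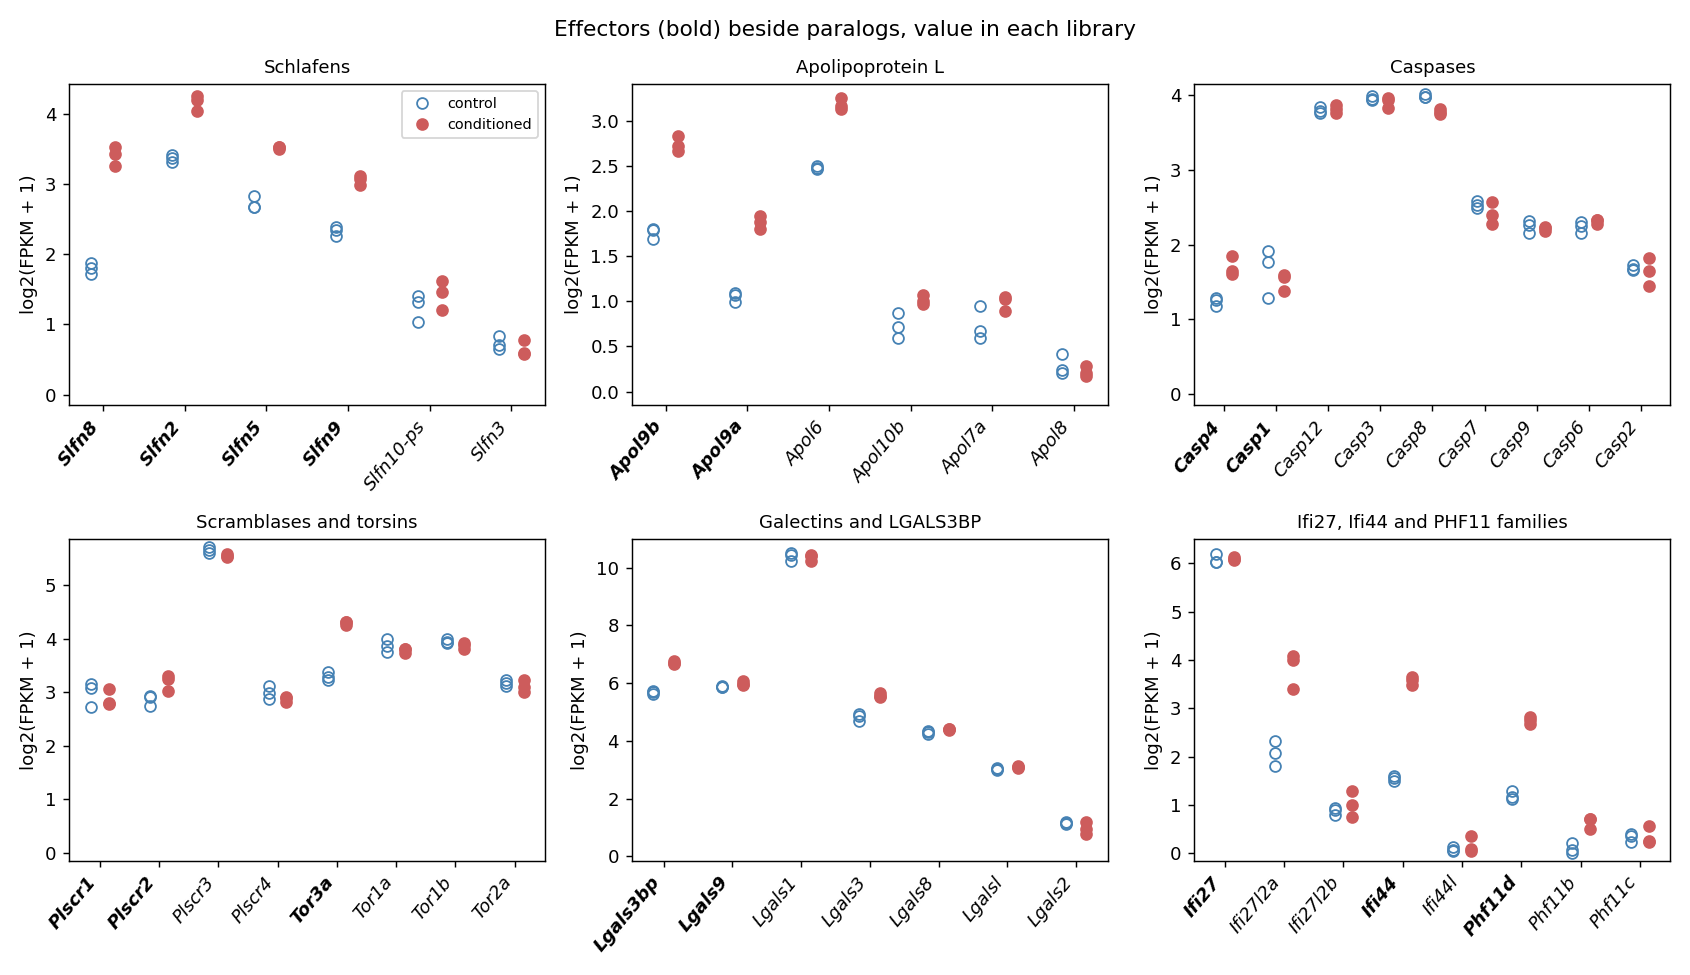
FPKM per library on a log2(FPKM + 1) axis for members of the module (bold) beside paralogs, with control libraries as open and conditioned libraries as filled points. Slfn8 moves from the lowest of the 4 schlafens in bold in control to between Slfn9 and Slfn5, Casp1 and Plscr1 overlap between the groups, and Casp4 does not.

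The second group holds scaffolds of nuclear bodies, transcriptional regulators and adaptors, of which 6 of 10 rose, 3 did not pass and 1 was below the filter. Phf11d (chr14:59347407-59365470), a PHD-finger protein, changed most. It was at 1.19, 1.43 and 1.25 FPKM in control and 5.73, 5.40 and 6.05 FPKM in conditioned libraries, a ratio of means of 4.45. The rise of 1.56 ± 0.07 (limma, adjusted p = 9.1e-06) was 2.14 on recovered fragments. Its relatives Phf11a, Phf11b and Phf11c were below the filter, and 5.71% of the 50-base words of Phf11d also occur in Phf11c. Phf11b had 6 fragments in the control group and 43 in the conditioned group, at 0.0, 0.161 and 0.0419 and then 0.427, 0.628 and 0.647 FPKM.

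PML bodies are nuclear spheres built on the Pml protein, in which Sp100 and Daxx reside and restrict incoming viral genomes. Pml (chr9:58218076-58249786) was at 18.4 FPKM in each control library and at 23.1, 23.0 and 22.2 FPKM in conditioned libraries. Its rise was small but far larger than the spread, 0.29 ± 0.04 (limma, adjusted p = 0.0027). Sp100 (chr1:85649988-85709998) was at 2.75, 2.95 and 2.90 FPKM in control and 5.52, 5.85 and 6.03 FPKM in conditioned libraries. It rose by 0.82 ± 0.06 (limma, adjusted p = 9.5e-05), so the ratio of Sp100 means (2.03) exceeded that of Pml (1.24).

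Sp110 (chr1:85576899-85598817), a relative of Sp100 studied in macrophage resistance to tuberculosis, went from 0.673, 0.736 and 0.841 to 2.03, 1.96 and 1.92 FPKM. It rose by 0.76 ± 0.08 (limma, adjusted p = 0.00071), but reached the filter only through its conditioned libraries. Without a level filter its adjusted p was 0.0031 (limma). As 42.3% of its 50-base words occur in other genes, 26.7% in Gm16026 alone, its level is uncertain. Daxx, the histone chaperone of these bodies, did not pass at 11.4, 12.9 and 13.8 FPKM in control and 15.0, 15.8 and 15.2 FPKM in conditioned libraries (0.26 ± 0.07; limma, adjusted p = 0.063). Its groups did not overlap, and voom on recovered fragments gave an adjusted p of 0.022. Of 12 other proteins of PML bodies or bound to Daxx, 12 were tested and 0 passed by limma, with 0 at an unadjusted p below 0.05 and 0 called by voom. The median over these 12 was 0.020 on the log2 scale.

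Nmi and Ifi35 bind each other and are released or act as adaptors in inflammation and antiviral signalling. Nmi was at 2.78, 2.90 and 3.02 FPKM in control and 4.48, 4.54 and 4.51 FPKM in conditioned libraries, and Ifi35 was at 9.05, 9.49 and 11.6 and then 18.0, 18.4 and 18.1 FPKM. Both rose, Nmi by 0.50 ± 0.05 (limma, adjusted p = 0.0011) and Ifi35 by 0.80 ± 0.08 (limma, adjusted p = 0.00091). Of the exon bases of Ifi35, 16.8% are overlapped by Gm11626 on the opposite strand, and the strand setting of the counting is not given in the sources used here.

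Trafd1, a feedback inhibitor of innate signalling, did not pass at 11.0, 11.4 and 12.5 against 13.5, 13.6 and 13.1 FPKM (0.19 ± 0.05; limma, adjusted p = 0.085). Voom called it at an adjusted p of 0.043. N4bp1, an RNA-cutting inhibitor of NF-kB signalling, was at 8.79, 8.61 and 7.87 and then 8.91, 9.07 and 9.34 FPKM (0.10 ± 0.05; limma, adjusted p = 0.34). In both genes the conditioned libraries lay above the control libraries by a margin smaller than the control range. Nlrc5, a transactivator of MHC class I genes, was barely detected, with 95 fragments in the control and 187 in the conditioned group (0.137, 0.157 and 0.193 against 0.287, 0.419 and 0.336 FPKM), and was not tested.

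**Figure D3:**
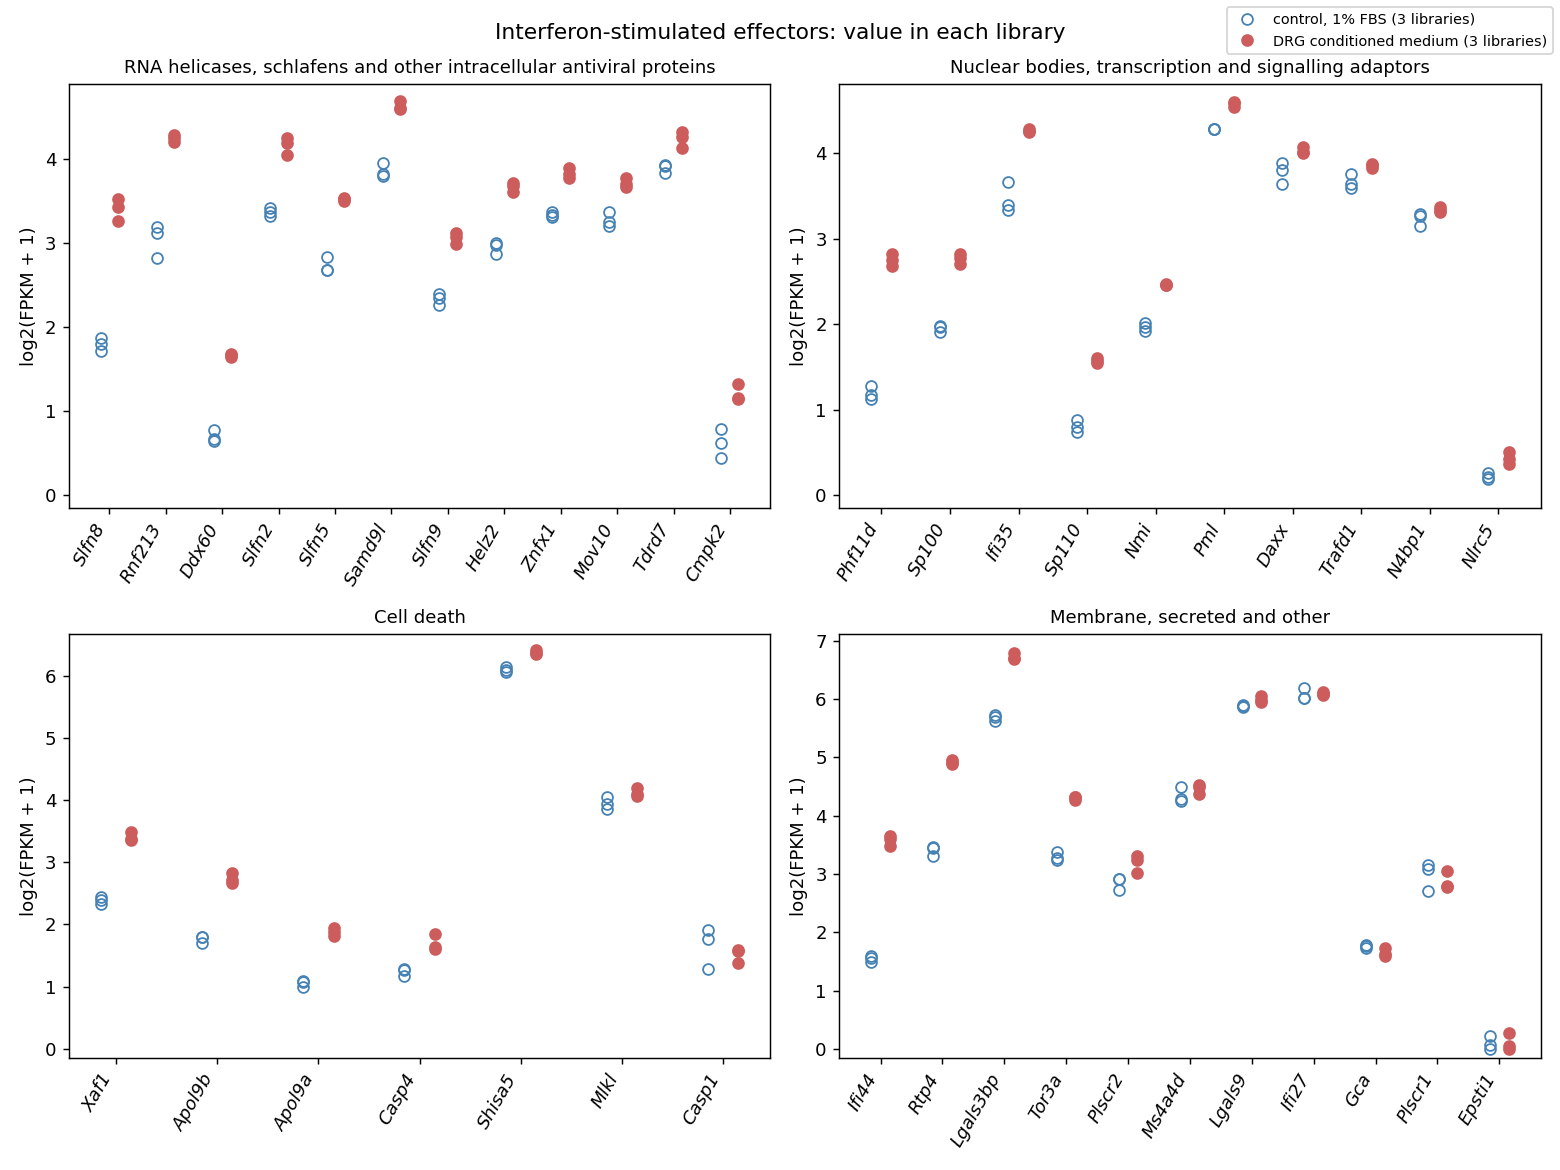
FPKM of the genes in each of the 6 libraries on a log2(FPKM + 1) axis, in panels by role, with control libraries as open and conditioned libraries as filled points. The groups do not overlap for 35 of the 40 genes, 34 with conditioned libraries above and Gca with conditioned libraries below. Of all genes of the table, 8.86% lay above and 8.78% below in this way.

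Of 7 genes of cell death, 5 rose and 2 did not pass. Xaf1 (chr11:72301629-72313733), an antagonist of the apoptosis inhibitor Xiap, was at 4.23, 4.04 and 4.42 FPKM in control and 9.31, 10.2 and 9.39 FPKM in conditioned libraries. It rose by 1.02 ± 0.06 (limma, adjusted p = 2.5e-05), the largest change of this group on the log2(FPKM + 1) scale. By voom Xaf1 (1.18) stood below Apol9a (1.31) and Apol9b (1.24), which have lower levels. Shisa5, an endoplasmic reticulum protein induced by p53, rose by a smaller factor from the highest level of the group, 67.3, 65.6 and 70.1 FPKM, to 84.2, 80.5 and 81.9 FPKM (0.28 ± 0.04; limma, adjusted p = 0.0038).

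Apol9a (chr15:77403789-77411135) and Apol9b (chr15:77729039-77736382) are cytosolic apolipoproteins L with antiviral activity that lie on chromosome 15 as near copies. Apol9a was at 1.10, 0.993 and 1.12 FPKM in control and 2.85, 2.69 and 2.50 FPKM in conditioned libraries, and Apol9b was at 2.46, 2.24 and 2.48 and then 6.11, 5.60 and 5.36 FPKM. Both rose, Apol9a by 0.83 ± 0.07 (limma, adjusted p = 0.00033) and Apol9b by 0.98 ± 0.06 (limma, adjusted p = 7.6e-05). Because 52.3% of the 50-base words of Apol9b occur in Apol9a, how the fragments divide between the copies is uncertain. Apol6, a relative outside the 40 genes, also rose, from 4.66, 4.52 and 4.57 to 7.78, 7.94 and 8.57 FPKM (0.70 ± 0.05; limma, adjusted p = 0.00015).

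Of the inflammatory caspases and the necroptosis executor, Casp4 rose, and Casp1 and Mlkl did not pass. Casp4, known in mice as caspase 11 and a cytosolic receptor for lipopolysaccharide, was at 1.39, 1.43 and 1.26 FPKM in control and 2.12, 2.05 and 2.58 FPKM in conditioned libraries. It rose by 0.46 ± 0.08 (limma, adjusted p = 0.016), although its groups are separated at low levels and the call was kept in 7 of 13 alternatives. The adjusted p was 0.051 without control replicate 2, 0.056 without control replicate 3, and 0.051 without conditioned replicate 1 or without conditioned replicate 3. Casp1, its neighbour on chromosome 9 and the caspase that matures interleukin-1 beta, was at 2.42, 1.43 and 2.75 against 1.60, 2.02 and 1.96 FPKM. Its groups overlapped (-0.14 ± 0.16; limma, adjusted p = 0.71). The difference between the responses of Casp4 and Casp1 was not tested.

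Mlkl, the membrane-breaking executor of necroptosis, was at 14.3, 15.5 and 13.4 FPKM in control and 16.1, 15.8 and 17.4 FPKM in conditioned libraries, without overlap but by a small margin (0.18 ± 0.06; limma, adjusted p = 0.14). Of 8 partners in inflammasomes and pyroptosis in the table, 3 were tested and 0 passed, with 1 at an unadjusted p below 0.05 and 0 called by voom. Gsdmd, the pore former cut by these caspases, was at 17.5, 16.6 and 18.1 against 18.4, 18.3 and 19.0 FPKM (0.09, limma, adjusted p = 0.34). Of 9 necroptosis partners Zbp1, an interferon-induced sensor of Z-form nucleic acids, rose from 1.70, 2.01 and 1.88 to 10.6, 10.7 and 9.33 FPKM (1.97 ± 0.07; limma, adjusted p = 2.6e-06). The other 8 did not pass by limma. Ripk3, the kinase that activates Mlkl, was at 34.7, 33.6 and 35.9 against 31.3, 29.5 and 31.8 FPKM without overlap (-0.17 ± 0.04; limma, adjusted p = 0.068), and voom called it lower (adjusted p = 0.043). Of the 9 partners, 3 had an unadjusted p below 0.05 by limma. Of 8 other caspases, 7 were tested, 0 rose and Casp8 fell, from 14.7, 15.1 and 14.8 to 12.4, 13.1 and 12.7 FPKM (-0.21 ± 0.04; limma, adjusted p = 0.021). That call was lost in 5 of 13 alternatives.

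The last group, membrane, secreted and other proteins, was the most divided: 4 of 11 rose, 6 did not pass and 1 was below the filter. Those 4 include the largest change of all. Ifi44 (chr3:151730922-151749960), a cytosolic protein with a GTPase-like domain, was at 1.96, 2.03 and 1.80 FPKM in control and 10.1, 11.1 and 11.5 FPKM in conditioned libraries. The lowest conditioned library was several times the highest control library, and the ratio of means was 5.65. The log2 fold change was 2.02 ± 0.06 (limma, adjusted p = 1.4e-06), the 8th largest on this scale of the 472 genes that rose, and 2.48 on recovered fragments (828 in control, 4282 in conditioned libraries).

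Rtp4 (chr16:23520291-23614222), a chaperone that carries G protein-coupled receptors such as opioid receptors to the surface and also binds viral RNA, was at 10.1, 8.96 and 9.84 FPKM in control and 28.5, 29.2 and 30.0 FPKM in conditioned libraries. It rose by 1.51 ± 0.05 (limma, adjusted p = 2.1e-06). The model Gm45338 on the same strand covers 13.9% of its exon bases. Tor3a (chr1:156653617-156674356), an interferon-inducible torsin ATPase of the endoplasmic reticulum, was at 8.40, 8.68 and 9.35 and then 18.9, 18.9 and 18.2 FPKM, and rose by 1.01 ± 0.05 (limma, adjusted p = 1.6e-05). The other torsins, Tor1a, Tor1b and Tor2a, had log2 fold changes of -0.09, -0.08 and -0.06, and 0 of 3 passed by limma, with 0 at an unadjusted p below 0.05 and 0 called by voom.

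Lgals3bp (chr11:118392751-118402092), a secreted glycoprotein that binds galectin 3 and matrix proteins, had the highest conditioned level of the 40 genes. It was at 50.8, 48.0 and 52.1 FPKM in control and 104, 109 and 101 FPKM in conditioned libraries. The rise of 1.04 ± 0.04 (limma, adjusted p = 6.8e-06) doubled an already abundant transcript, with a ratio of means of 2.08. Lgals3, which codes for galectin 3, rose as well, from 24.9, 28.0 and 29.4 to 49.0, 45.1 and 45.9 FPKM (0.75 ± 0.06; limma, adjusted p = 0.0003). Lgals9, a galectin that binds immune checkpoint receptors, did not pass at 57.9, 57.3 and 58.7 against 65.6, 60.9 and 61.9 FPKM (0.11 ± 0.04; limma, adjusted p = 0.15). Lgals1 was at 1205, 1383 and 1455 against 1397, 1367 and 1211 FPKM and did not pass (-0.02; limma, adjusted p = 0.92).

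Ifi27 (chr12:103434211-103440239), a small membrane protein of mitochondria and the nuclear envelope, had one of the highest control levels and no called difference. It was at 64.0, 63.9 and 72.0 FPKM in control and 68.8, 67.1 and 66.3 FPKM in conditioned libraries, with overlap (0.02 ± 0.05; limma, adjusted p = 0.89). Its relative Ifi27l2a was at 2.51, 4.03 and 3.21 and then 15.0, 16.0 and 9.57 FPKM. Ifi27l2a rose by 1.76 ± 0.23 (limma, adjusted p = 0.013), a call lost without control replicate 1 (adjusted p = 0.058) and without control replicate 3 (adjusted p = 0.061).

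The phospholipid scramblases Plscr1 and Plscr2, neighbours on chromosome 9, did not pass. Plscr1, which restricts several viruses, overlapped between groups at 5.58, 7.46 and 7.91 against 5.97, 5.85 and 7.28 FPKM (-0.11 ± 0.13; limma, adjusted p = 0.72). Plscr2 was at 6.54, 5.63 and 6.56 against 7.07, 8.88 and 8.50 FPKM without overlap (0.33 ± 0.09; limma, adjusted p = 0.07). It was called by voom (adjusted p = 0.022) and without conditioned replicate 1 (adjusted p = 0.031).

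Ms4a4d, a tetraspan membrane protein, overlapped at 18.0, 18.4 and 21.5 against 21.5, 22.1 and 19.8 FPKM (0.13 ± 0.07; limma, adjusted p = 0.39). Gca, the calcium-binding protein grancalcin, was the one gene with every conditioned library below every control library, at 2.41, 2.33 and 2.43 against 2.10, 2.32 and 2.04 FPKM. The margin was very slight, with control replicate 2 at 2.326 and conditioned replicate 2 at 2.323 FPKM. Of all genes of the table, 8.78% lay below in this way. Gca did not pass (-0.10 ± 0.06; limma, adjusted p = 0.43), and Kcnh7 on the opposite strand overlaps 20.4% of its exon bases. Epsti1 was hardly detected, with 11 fragments in each group and 0 fragments in control replicate 1 and conditioned replicate 3. As many as 3 fragments could be missed where 0 were counted, and no difference was detectable at this depth.

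**Figure D4:**
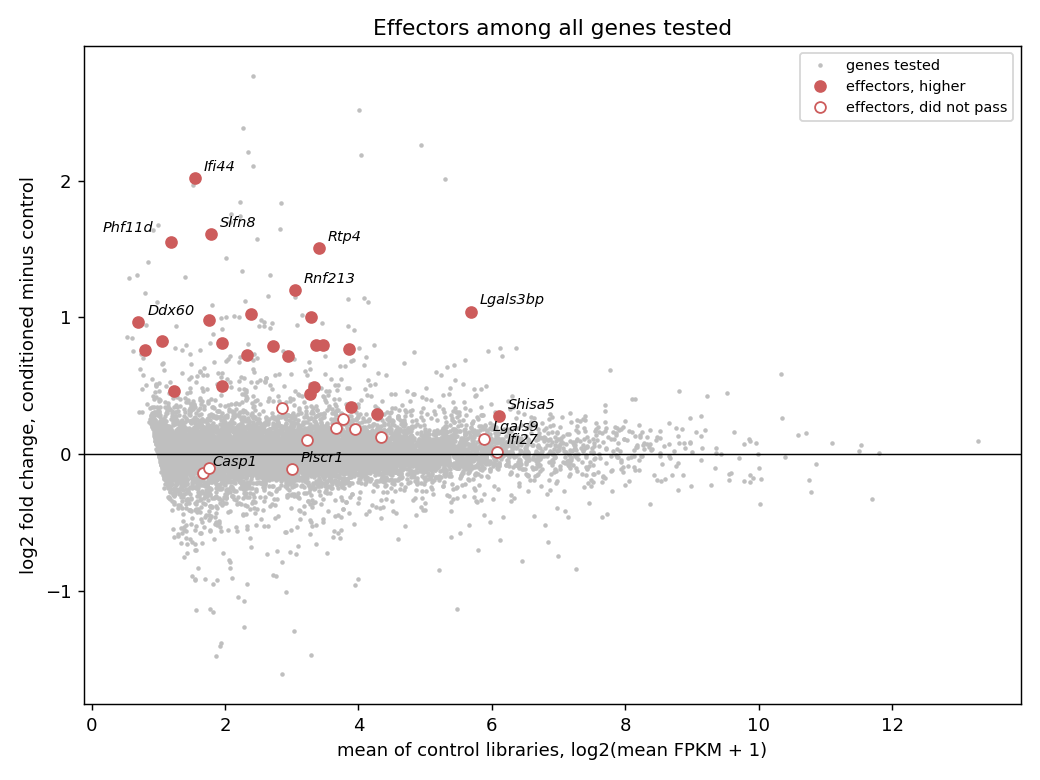
Log2 fold change (conditioned minus control, log2(FPKM + 1) scale) against the control level, log2(mean FPKM + 1), of each of the 11678 genes tested, in grey, with the tested genes of the module in red, filled where they passed. Of the 43 genes that were called higher and lie at 1 or more on this axis, 8 belong to the module, while Ifi27 and Lgals9 lie near 0 at high levels.

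The genes that rose were tight within groups, but the test that picked them favours genes with a small spread. Over the 26, the coefficient of variation among libraries had a median of 5.76% in control and 4.07% in conditioned libraries, with highest values of 15.1% (Rnf213) and 12.9% (Casp4). No single library carried the rise: conditioned replicates 1, 2 and 3 held the highest conditioned value of 8, 10 and 8 of the 26 genes. The ratios of means ranged from 1.22 to 5.65. Genes with a lower control level tended to have the larger fold change (Spearman rho -0.37 and Pearson r -0.38 over 37 genes, and -0.49 and -0.51 with fold changes from voom). This relation is across genes that share the same 6 libraries, and the control level enters both axes. The level filter also weighs on it. A gene with a control mean below 1 FPKM was tested only if its conditioned libraries were higher, as for Ddx60 and Sp110. Summed over the 40 genes, the level was 464 to 490.2 FPKM (control) and 689 to 699 FPKM (conditioned).

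The better known families of the interferon response moved in the same libraries, and their list was also chosen with earlier results known. Of 59 other interferon genes in the table, 52 of the 54 tested rose and 0 fell. Their median log2 fold change was 0.93, against 0.72 for the 37 tested genes of the module. The difference between those medians was not tested. Some of the other interferon genes had a control mean below 1 FPKM and reached the filter only through the conditioned group. Without a level filter 49 of the 59 were called higher (1.34% of all genes). The median over the 59 was then 0.88, against 0.54 for the 40 genes. Among the factors that bind the ISRE, Stat2 rose from 16.9, 16.6 and 16.3 to 36.9, 37.0 and 37.1 FPKM (1.11 ± 0.03; limma, adjusted p = 1.4e-06) and Irf9 rose by 0.62. Irf1, a gene with a classical GAS in its promoter, did not pass at 6.17, 6.40 and 6.57 against 6.88, 5.71 and 6.09 FPKM (-0.03; limma, adjusted p = 0.84).

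Of 11 interferon ligand genes searched, Ifng was the 1 listed in the table, at 0.0332, 0.0294 and 0 FPKM in control and 0 in each conditioned library, and the other ligands were not analysed here. Of 6 receptor chains, 5 were tested and 0 rose. Ifnar1 and Ifnar2, the receptor of type I interferons, did not pass (-0.09 and 0.02). Ifngr1 fell from 16.9, 16.5 and 16.2 to 14.6, 14.6 and 14.4 FPKM (-0.17 ± 0.04; limma, adjusted p = 0.037), a call lost in 9 of 13 alternatives. Across the paralogs of the 40 genes, 3 of 24 tested rose (Ifi27l2a, Lgals3 and Apol6), 1 fell (Casp8) and the median log2 fold change was -0.04. Among all genes tested 4.04% were called higher and 2.49% lower. The calls of Ifi27l2a and Casp8 were lost in some alternatives, as given above.

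Markers of other cells that could be present were summed in each library. Leukocyte and macrophage markers (8 of 12 in the table) had sums of 6.68 to 7.89 FPKM (control) and 6.68 to 7.10 FPKM (conditioned), 0 of 3 tested passed by limma (1 at an unadjusted p below 0.05, 0 called by voom), and Adgre1 and Cx3cr1 were at 0 in each conditioned library. Endothelial and mural markers summed to 7.32 to 8.27 and 7.70 to 8.07 FPKM. Markers of DRG neurons had sums of 25.2 to 28.8 FPKM (control) and 19.7 to 21.9 FPKM (conditioned), most of it Tubb3, which was 1 of 2 tested and fell (-0.43; limma, adjusted p = 0.0018; also called lower by voom). Those of Schwann cells and satellite glia summed to 3.52 to 4.12 and 2.34 to 3.56 FPKM. Of 12 tendon and fibroblast markers, 11 were tested and 8 fell (collagens Col1a1, Col1a2 and Col3a1, with Fmod, Dcn, Tnmd, Lum and Thbs4). Of those tested, 2 had a log2 fold change above 0, and 0 rose by limma. Voom called 1 higher and 8 lower. The 12 together summed to 5307 to 5433 FPKM (control) and 4273 to 4381 FPKM (conditioned). In bulk libraries fewer cells of a type and less RNA per cell cannot be told apart, and the part of this fall in the results above was not tested.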

How the data were processed

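Poly-A selected RNA from 6 libraries was sequenced as paired ends on an Illumina platform, per the labels' protocols. The authors deposited FPKM values for 24413 genes. CASAVA, HISAT2 2.0.5 and mm10 are named without roles per the submitters' processing notes, and for the counting program, annotation, strand setting and filters nothing is stated in the sources used here. The labels describe both directional and non-directional libraries, so overlapping antisense genes cannot be told apart. Each gene's FPKM values were whole multiples of 1 fragment (tolerance 0.01 fragment) for 24413 of 24413 genes (100%), which gave 18779622 to 26068418 fragments per library. Libraries of a group differed by more than sampling noise (chi-square of 3.15 to 7.03 for each degree of freedom).

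Genes averaging 1 FPKM or more were tested on log2(FPKM + 1), a pseudocount of 1 FPKM, with limma 3.58.1 (trend, robust, two-sided, no covariate) in R 4.3.3, and Benjamini-Hochberg adjustment over 11678 genes (threshold 0.05). Voom used recovered fragments with TMM scaling. Floors and fragment counts cover counting error only. On simulated data for this comparison (11678 genes, 200 changed, 10 draws), limma recovered 30.4% of genes changed 1.25-fold, 72.6% at 1.5-fold and 89.7% at 2-fold, with 5.83% false calls. Gene positions and shared 50-base words came from GENCODE M21 and promoters from RefSeq (GRCm38.p6). Python 3.11.15, numpy 2.4.6, pandas 2.3.3 and matplotlib 3.10.9 were used.

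Members and gene lists were chosen with earlier results of these data known. Values per library are given for the up to 4 largest changes of each role, for near copies, for the extremes of level, for tested genes that did not pass and for those below the filter, and of other lists for up to 6 genes that passed and the nearest relatives or partners. The comparison of protein sequences planned for near copies was replaced by shared 50-base words of transcripts, chosen after seeing the data. Alternatives were another pseudocount, other filters, median-of-ratios scaling, a plain prior, voom, a replicate block and leaving out each library. One gene of the other interferon genes is not reported here by name.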

Additional observations from a re-analysis of the deposited data

How the results depend on the processing

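The count of genes that rose among the 40 was 24 to 29 in the 13 alternatives, and 24 of the 26 kept their calls in each of them. All genes called numbered 763, and 492 without a level filter. Leaving out 1 library gave 394 (without conditioned replicate 2) to 676 (without control replicate 1), with 462 without control replicate 2 and 413 without conditioned replicate 1. Fewer samples enter those fits. Casp4 had an adjusted p of 0.05 (limma) without a level filter. The fold change of Ifi27, near 0 throughout, turned to -0.0091 without control replicate 1 and -0.010 without control replicate 2, and was 0.075 without control replicate 3. Voom called 2 partners of the module in place of 1. Searched on the gene's strand alone, the ISRE core was in 3 genes in place of 9. With median-of-ratios scaling the median log2 fold change of all genes tested was -0.0012, where the main fit gave 0.0052.

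Libraries with the same replicate number did not deviate together (correlations of -0.0948, -0.00803 and -0.0476 over genes). The labels do not say whether the numbers pair libraries, and so few libraries cannot settle it. With a replicate block, 390 genes were called and 24 of the 26 kept their calls (adjusted p by limma 0.059 for Tdrd7 and 0.078 for Casp4). With 3 libraries a group, limma recovered few small changes in simulation, so genes such as Mlkl, Lgals9 and N4bp1 that did not pass are not shown to be unchanged.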
